A study of Mus musculus with 17 samples.

Results

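The axon guidance ligands and receptors are the semaphorins of classes 3 to 7, the plexins, neuropilins, ephrins, Eph receptors, netrins, Unc5 receptors, Dcc, Slits and Robos. Members were chosen by gene symbol alone, and 70 of the 21927 protein-coding genes listed for both sequencing batches matched. They comprised 35 ligands, 34 receptors and Unc5cl, which matched by name but is not a netrin receptor and was placed in neither class. Ribosome-bound RNA was sequenced from the corpus callosum, the tract that joins the cerebral hemispheres, of male mice aged 8 to 9 weeks. All groups carried GFAP-Cre+/- and Rpl22HA/wt, an HA-tagged ribosomal protein that Cre recombinase switches on, so that tagged ribosomes with their RNA can be precipitated. Mice of the cuprizone groups were given 0.2% cuprizone in their food for 5 weeks and plain chow from then on; the compound binds copper, and oligodendrocytes die under it. Mock groups stayed on a normal diet. Tissue was taken at 5 weeks, when demyelination is acute, at 5.5 weeks, early in remyelination, and at 7 weeks, late in remyelination. The GFAP promoter decides which cells carry the tag, and no library of the lysate before precipitation was used here, so enrichment for astrocytes was not measured.

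Guidance cues steer axons and migrating glia by attraction or repulsion at the cell surface. Class 3 semaphorins are secreted and act through neuropilins paired with plexins, whereas semaphorins of classes 4 to 7 are mostly membrane proteins that bind plexins directly. Ephrins are anchored in the membrane and activate Eph receptor tyrosine kinases on the neighbouring cell, netrins attract through Dcc and repel through Unc5 receptors, and Slits repel through Robos. In white matter, several of these genes are known in the oligodendrocyte lineage as well as in neurons and astrocytes: Sema4d and Sema6a are made by oligodendrocytes, Plxnb3 encodes a receptor for Sema5a found on that lineage, and Sema3a repels oligodendrocyte precursors.

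Of the 17 libraries, 8 largely repeated the values of another library of their group plus a small whole number, and each such set was counted as 1 library. That left 3 cuprizone and 2 mock libraries at 5.5 weeks, and 1 library of each group at 5 and at 7 weeks. The 9 libraries used held 20797535 to 30400048 counts. Astrocyte markers were abundant in all of them (summed level of 10 genes 10307 to 18674 CPM, the counts scaled to a common library size), but so were markers of mature oligodendrocytes (12 genes, 10103 to 23951 CPM) and neurons (10 genes, 7540 to 15118 CPM), so the values below are those of a mixed precipitate. In such bulk material, fewer cells of a type and less RNA per cell cannot be told apart. The 7-week cuprizone library stood apart, with 34576 genes detected against at most 23980 in the others. The 5-week libraries form a batch of their own, so week and batch cannot be told apart there.

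At 5.5 weeks, 4 members rose after cuprizone: the ligands Sema6a, Sema4d and Sema3d and the receptor Plxnb3. None of the 65 members tested fell in edgeR, where 0 were lower at an unadjusted p under 0.05 too, and 0 were called lower by DESeq2 or limma-voom. The share of members called can be read against 1.47% of all 16086 genes called in either direction, 1.08% higher and 0.392% lower (edgeR quasi-likelihood test, Benjamini-Hochberg adjusted p under 0.05). The sequences around the transcription start sites of 3 of the 4 are shown because these genes rose together, from 250 bases before to 50 bases after the start, as RefSeq gives them on GRCm38.p6. Sema6a is the called member not shown, and the letter counts below do not cover it. For Sema4d, the first of its 3 listed starts is printed. Capitals mark the letters ACAAAG or their reverse complement CTTTGT, the core that SOX transcription factors bind, searched on both strands.
Sema3d, chr5:12382916-12383215, + strand: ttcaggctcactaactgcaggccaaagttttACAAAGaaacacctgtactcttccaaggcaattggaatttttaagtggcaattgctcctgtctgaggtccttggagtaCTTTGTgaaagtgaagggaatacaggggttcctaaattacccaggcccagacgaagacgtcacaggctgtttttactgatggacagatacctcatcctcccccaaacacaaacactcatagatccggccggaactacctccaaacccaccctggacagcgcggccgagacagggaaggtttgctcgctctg
Sema4d, chr13:51748761-51749060, - strand: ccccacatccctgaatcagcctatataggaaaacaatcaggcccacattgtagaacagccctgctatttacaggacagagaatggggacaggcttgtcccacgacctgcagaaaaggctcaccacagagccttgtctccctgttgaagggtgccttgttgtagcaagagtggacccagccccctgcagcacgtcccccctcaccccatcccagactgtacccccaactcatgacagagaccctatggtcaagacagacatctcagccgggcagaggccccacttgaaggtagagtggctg
Plxnb3, chrX:73756853-73757152, + strand: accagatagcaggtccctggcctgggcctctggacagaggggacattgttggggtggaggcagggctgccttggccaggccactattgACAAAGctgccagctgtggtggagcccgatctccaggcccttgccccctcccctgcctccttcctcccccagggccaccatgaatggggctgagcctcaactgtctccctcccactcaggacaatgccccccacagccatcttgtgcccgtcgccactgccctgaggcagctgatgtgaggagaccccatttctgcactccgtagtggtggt

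The SOX letters occurred at 2 places in the Sema3d window, at 1 place in the Plxnb3 window and not in any of the 3 Sema4d windows. They occurred in 18.7% of the 32851 promoter windows of the same length. The letters CTGGCAC, a core bound by the myelin regulator MYRF, were in none of these windows and in 5.01% of all. These are letter matches in one stretch per start and not measured sites.

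Sema6a, a transmembrane semaphorin that binds plexins A2 and A4, was at 41.5 and 31.6 CPM in the mock libraries and at 88.9, 74.2 and 63.0 CPM in the cuprizone libraries at 5.5 weeks. All cuprizone values lay above both mock values. The log2 fold change was 1.04 ± 0.17 (SE, n = 3 against 2, edgeR adjusted p = 0.0108), the largest of the named members at this time. Sema6a differed less at the other times, at 47.5 CPM in mock and 55.2 CPM in cuprizone at 5 weeks, and 32.7 and 48.3 CPM at 7 weeks.

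Sema4d, a membrane semaphorin whose main receptor is plexin B1, was at 87.1 and 73.3 CPM in mock and at 172, 146 and 127 CPM in cuprizone at 5.5 weeks. The groups did not overlap, and the log2 fold change was 0.88 ± 0.14 (edgeR adjusted p = 0.0104). Its receptor gene Plxnb1 had a log2 fold change of -0.13 ± 0.13 (edgeR adjusted p = 0.766). At 5 weeks Sema4d was at 59.5 CPM in mock and 43.4 CPM in cuprizone, and at 7 weeks the values were 76.8 and 82.9 CPM.

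Sema3d is a secreted semaphorin present at a far lower level. It was at 6.80 and 6.77 CPM in mock and at 12.4, 14.7 and 12.5 CPM in cuprizone at 5.5 weeks (log2 fold change 0.95 ± 0.16, edgeR adjusted p = 0.0132). The mock libraries were almost equal and the cuprizone libraries all stood clear of them. At 5 weeks it was the same in both libraries (5.02 CPM mock, 5.08 CPM cuprizone), and at 7 weeks it was at 6.48 and 8.28 CPM.

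Plxnb3, the plexin that binds Sema5a, was at 19.3 and 18.5 CPM in mock and at 35.2, 28.9 and 30.7 CPM in cuprizone at 5.5 weeks (log2 fold change 0.73 ± 0.13, edgeR adjusted p = 0.0195). It was the only one of the 4 that differed 2-fold at 5 weeks, and there it was lower, at 17.9 CPM in mock and 8.86 CPM in cuprizone. At 7 weeks it was at 16.9 CPM in mock and 27.5 CPM in cuprizone.

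**Figure D1:**
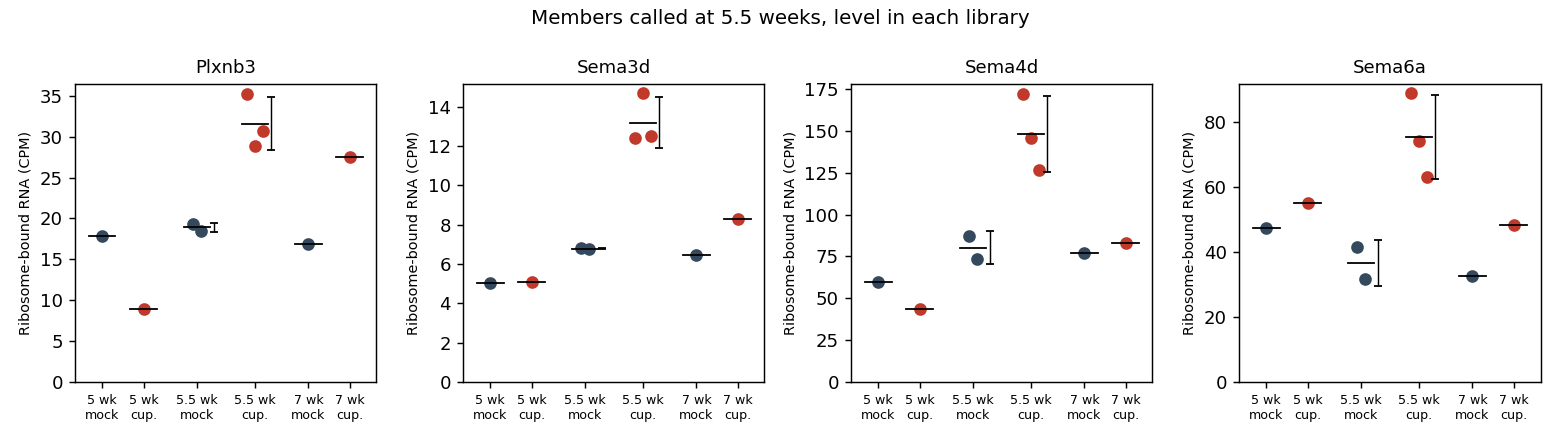
Level of Plxnb3, Sema3d, Sema4d and Sema6a in CPM (y axes, each from 0) in each of the 9 libraries, by week and diet (x axes). Points are libraries, dark for mock and red for cuprizone, horizontal lines are means and bars are SD where a group has more than 1 library; at 5.5 weeks the 3 cuprizone points lie above both mock points in every panel, from 12.4 CPM and up against at most 6.80 CPM for Sema3d.

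These calls rest on few libraries. Without mock replicate 3 no member was called (Sema6a and Sema4d then both had an adjusted p of 0.122 in edgeR), and without mock replicate 1 the count was 2. Markers of the oligodendrocyte lineage moved the same way: those of mature oligodendrocytes summed to 16352 and 17333 CPM in mock and to 19656 to 23951 CPM in cuprizone (3 of 12 rose and 1 fell), and those of precursors and newly formed oligodendrocytes to 221 and 254 CPM against 309 to 363 CPM (1 of 9 rose). Astrocyte markers also summed higher, 12061 and 12611 CPM against 15210 to 18033 CPM, with 1 of 10 called. Gfap alone was at 1200 and 1160 CPM in mock and at 6330, 5410 and 5120 CPM in cuprizone. The median log2 fold change of the 10 astrocyte markers was -0.06, with 4 above and 6 below 0. Neuronal markers summed to 11474 and 12254 CPM in mock and 11287 to 12688 CPM in cuprizone, with none of 10 called (edgeR, also 0 at an unadjusted p under 0.05). Choroid plexus and ependyma markers summed to 48 and 55.2 CPM in mock and to 85.2 to 96.5 CPM in cuprizone, with 1 of 7 called. Microglial markers summed to 33.2 and 38.6 CPM against 46 to 59.2 CPM, with 0 of 9 tested genes called. Sums of endothelial, pericyte and fibroblast markers overlapped between the groups. The part of any of these markers in the rise of the members was not tested.

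Below these 4, the members leaned upward without passing the test. The median log2 fold change over the 65 members was 0.22, with 50 above and 15 below 0, while the median over all genes was 0.00. By exon length (under 2, 2 to 4, 4 to 8 and over 8 kb) other measured genes had medians of -0.13, -0.04, 0.02 and 0.08. Members in the 3 longer classes had 0.10, 0.21 and 0.31. With a hydrophobic protein start, as defined below, other genes had 0.07 and members 0.21, and without it -0.01 and 0.41. A part of either in this lean was not tested. The cuprizone libraries were all above the mock libraries in 22 members and all below in 1, Sema4b, against 27.4% of all genes without overlap, 13.7% in each direction. At an unadjusted p under 0.05 in edgeR there were 17 members, all of them higher, where 10.9% of all genes passed in either direction (6.27% higher, 4.64% lower). Ligands and receptors were alike in this, with medians of 0.19 over 34 ligands and 0.26 over 31 receptors. Sema5a, the ligand of Plxnb3, was at 55.3 and 38.6 CPM in mock and at 86.5, 60.6 and 75.8 CPM in cuprizone (log2 fold change 0.65 ± 0.18, edgeR adjusted p = 0.136). Slit2, a secreted repellent, was at 12.3 and 10 CPM against 15.6, 16 and 17 CPM (0.53 ± 0.15, edgeR adjusted p = 0.148), and the membrane semaphorin Sema4c had a log2 fold change of 0.52 ± 0.17 (edgeR adjusted p = 0.212). Among receptors, the next after Plxnb3 were Epha7 (0.48), Unc5c (0.47), Epha6 (0.47), Dcc (0.43) and Ephb1 (0.42), whose edgeR adjusted p-values ran from 0.244 to 0.457. The 3 Robo genes tested had a median of 0.40 and the 3 Slit genes one of 0.41, with no call. Ephrins moved least, with medians of 0.02 for the 5 ephrin-A and 0.06 for the 3 ephrin-B genes.

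**Figure D2:**
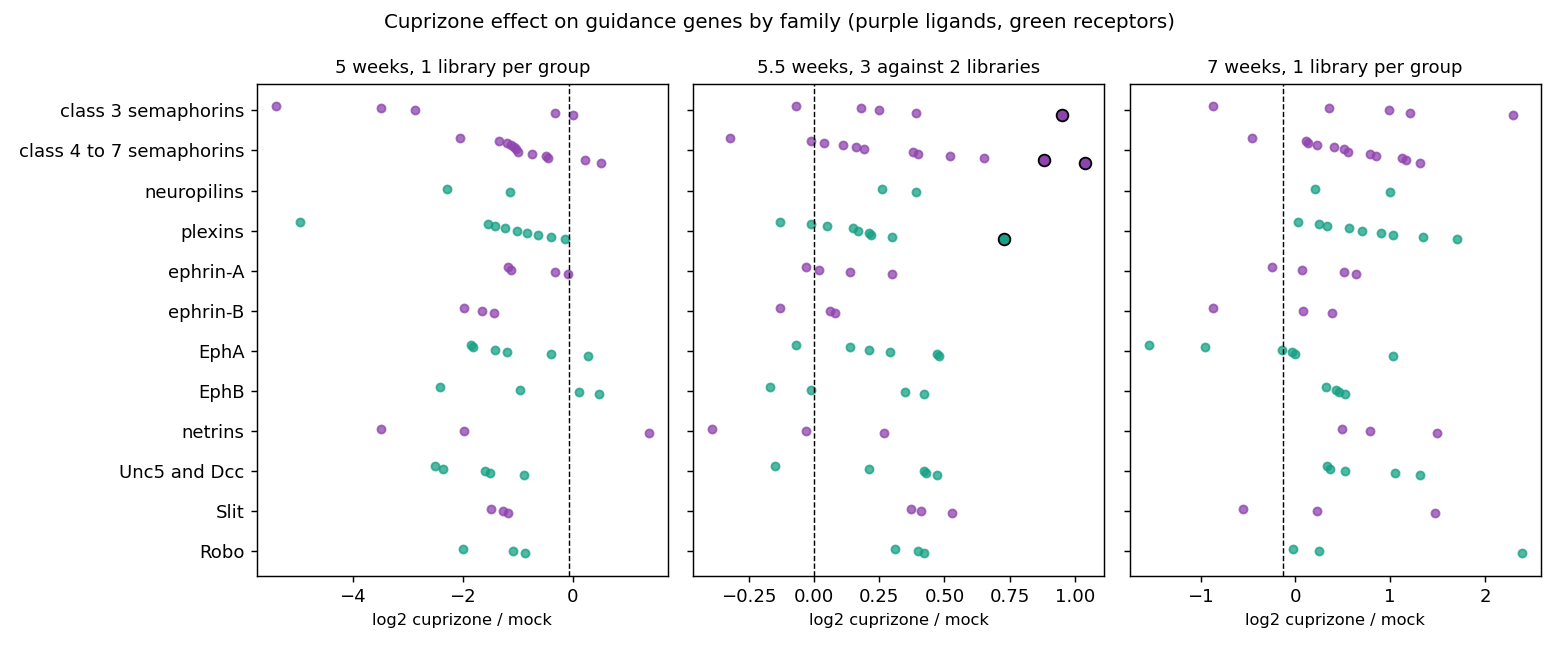
Log2 ratio of cuprizone to mock (x axes, each panel on its own scale) for the 59 members measured, by family (y axis), at 5, 5.5 and 7 weeks. Points are genes, purple for ligands and green for receptors, rings mark the 4 called at 5.5 weeks and dashed lines are the median over all genes; most points lie left of the line at 5 weeks, where the median member is at -1.17, and right of it at 7 weeks, where it is at 0.46.

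Compared per kilobase of exon, ephrin and Eph genes dominated the mock libraries. Efnb3, a membrane ephrin of the B class, had the highest level, 49.1 CPM per kb on average over the 4 mock libraries (range 31.5 to 56.0). The ligands next in order were Efna3 at 12.8, Sema7a at 11, Efna5 at 10.5 and Sema4d at 9.66 CPM per kb. The neighbours in this order overlap in range, for Efna3 11 to 14.1, for Sema7a 6.03 to 13.9, for Efna5 9.22 to 11.8 and for Sema4d 7.74 to 11.3 CPM per kb, so that Efnb3 alone stands clear of the rest. Among receptors the highest were Epha4 at 22.0 (17.1 to 28.5), Ephb6 at 20.7 (19.2 to 24.1) and Epha7 at 16.2 (13.1 to 18.0) CPM per kb, followed by the netrin receptor Unc5a at 7.29 and Epha5 at 6.43. Of the exon length of Efna3, 14.1% is shared with a gene on the other strand, and of Ntn5 23.4%, so their reads may be mixed. Of these 10 genes, Sema4d was called at 5.5 weeks and the other 9 were not, with log2 fold changes from -0.01 for Ephb6 to 0.48 for Epha7. Efnb3, the highest, was at 178 and 170 CPM in mock and 180, 186 and 180 CPM in cuprizone, and Ephb6 at 90.9 and 74.5 CPM against 84.4, 77.7 and 86.5 CPM. Ephb6 encodes an Eph receptor without kinase activity, and its groups overlapped.

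At 5 weeks, when demyelination is acute, most guidance genes were lower in the cuprizone library than in the mock library. Of the 59 members with a geometric mean of 2 CPM or more over the 9 libraries, 38 were at least 2-fold lower and 1 at least 2-fold higher, where 13.8% of 12656 measured genes were lower by that much and 8.19% higher (22% in either direction). The median log2 ratio was -1.17 over the members and -0.07 over all measured genes. With 1 library per group there is no measure of spread and no p-value, and the 95% intervals given with each fold are exact (Clopper-Pearson) and cover counting error only.

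By count and median, ligands and receptors were lower alike. Of 30 ligands 20 were lower and 1 higher, with a median of -1.15, and of 29 receptors 18 were lower, with a median of -1.20. The ligands summed to 599 CPM in mock and 315 CPM in cuprizone, the receptors to 1095 and 428 CPM. In a fit of all 9 libraries, which lends the spread at 5.5 weeks to the lone libraries, 44 of 70 members fell and 1 rose, where 33.1% of 20292 genes were called in either direction, 18.5% lower and 14.6% higher (edgeR, adjusted p under 0.05). Class 3 semaphorins had the lowest median, -2.86 over 5 genes. Sema3a, a repellent of axons and of oligodendrocyte precursors, had 66 reads in mock and 0 in cuprizone, at least 24.1-fold lower if 3 counts are taken as the floor of that library. With the mean of the repeated libraries its log2 ratio was -1.68 in place of -5.40, and with the 5-week libraries as deposited it was -1.65 (edgeR adjusted p = 0.288). Sema3e, which signals through plexin D1, was at 45.0 CPM in mock and 6.15 CPM in cuprizone, 7.32-fold lower (6.11 to 8.82). Sema3b was 12.7-fold lower (6.89 to 26.2) at 128 against 11 reads. Within the same family Sema3d (log2 ratio 0.01) and Sema3c (-0.32) differed little.

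Plxna3, a signalling partner of the neuropilins, had 76 reads in mock and 1 in cuprizone (83.2-fold lower, 14.5 to 3330), and its log2 ratio of -4.95 became -2.23 with the mean of the repeated libraries and -2.30 with the libraries as deposited (edgeR adjusted p = 0.119). Both neuropilins were lower, Nrp1 at 47.3 against 9.66 CPM and Nrp2 at 13.9 against 6.24 CPM. The other plexins were at log2 ratios of -1.53 to -0.13, and of the 9 plexins 5 were at least 2-fold lower.

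Among netrins, Ntn3 was 14.2-fold lower (6.25 to 40) at 78 against 6 reads, whereas Ntn1, the main netrin of the embryonic midline, was 3.00-fold higher (1.25 to 8.28) at only 7 against 23 reads. The 5 Unc5 and Dcc genes had a median of -1.6, led by Unc5a (5.75-fold lower, 4.55 to 7.34) and Unc5b (5.21-fold lower, 4.14 to 6.61). All 3 Slits were lower (2.27-fold to 2.85-fold), and 2 of 3 Robos, among them Robo1 at 21.4 against 5.30 CPM. Robo3 had too few reads to place, 13 against 7.

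In the Eph system, all 3 ephrin-B genes were lower, the abundant Efnb3 from 100 CPM in mock to 37.1 CPM in cuprizone. Ephb6 was 5.37-fold lower (4.75 to 6.10), at 72.5 against 13.5 CPM. The abundant EphA receptors were lower too, Epha4 at 229 CPM in mock against 65.3 CPM in cuprizone, Epha7 at 178 against 67.2 CPM and Epha5 at 105 against 45.7 CPM. Ephb1 (log2 ratio 0.11), Ephb2 (0.48), Efna1 (-0.08) and Efna5 (-0.32) did not share the difference, and the EphB family had the smallest median, -0.42.

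The lower levels at 5 weeks were not limited to guidance genes. Among other genes they were more frequent where the encoded protein started with a hydrophobic stretch. Nearly all members encode secreted or membrane proteins, which are made with a hydrophobic stretch near their start. All measured genes with an annotated coding sequence (12103) were therefore classed by whether a run of 10 residues among the first 40 reached a mean Kyte-Doolittle hydropathy of 2. Of 2271 other genes with such a start, 40.3% were at least 2-fold lower at 5 weeks and 4.71% higher, with a median log2 ratio of -0.75. Of 9773 other genes without it, 7.18% were lower and 8.95% higher, with a median of 0.02. The 50 members with a hydrophobic start had a median of -1.16 and 32 of them were at least 2-fold lower. The 9 members that the rule did not class so, among them Sema3e, Ntn3 and Epha5, had a median of -1.20, and 6 were lower. With the median of each gene's own class subtracted, 19 members were at least 2-fold lower and 4 higher, in place of 38 and 1. Of the named members, Sema3a (-4.63), Plxna3 (-4.18) and Sema3b (-2.71) were then still far below their class, while Plxnb3 (-0.24) was not. Sema3a and Plxna3 rest on 0 and 1 reads in the cuprizone library. Ntn3 (-3.51) and Sema3e (-2.88) were centred on genes without such a start, whose median is near 0. Centring could therefore hardly move them, nor the 6 lower ones among those 9 members, and shows nothing about them.

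A contrast by place of action was seen among other genes of these pathways. The list held 82 co-receptors, further cues and mediators, of which 79 were measured. Of the 25 that act at the surface or outside the cell, 18 were at least 2-fold lower at 5 weeks and none higher (median -1.58), among them the adhesion molecules Cntn2 (18.0-fold lower, 14.2 to 23.1) and L1cam (8.74-fold lower, 7.24 to 10.6) and the VEGF receptor Kdr (49 against 1 read). Of the 54 that act inside the cell, none was lower and 6 were higher (median 0.15), led by the GTPase Rac1 (3.6-fold, 3.44 to 3.76), Farp1 (2.98-fold) and Rnd2 (2.40-fold). This split of the list was made after its values were seen. It is not the split by protein start, as 17 of the 25 surface genes and 1 of the 54 inside had a hydrophobic start. By exon length, other genes had medians of -0.18, -0.12, -0.04 and 0.05 in classes of under 2, 2 to 4, 4 to 8 and over 8 kb. The members in the 3 longer classes had medians of -1.38, -0.95 and -1.20. A part of exon length in these values was not tested.

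**Figure D3:**
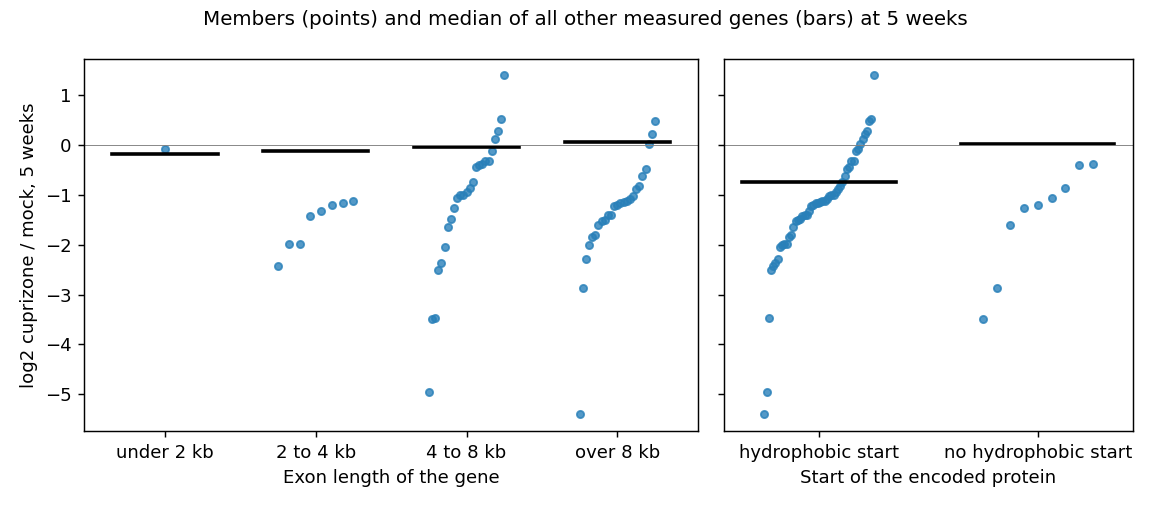
Log2 ratio of cuprizone to mock at 5 weeks (y axis) of the 59 measured members (points, spread sideways in order of value) by exon length (left) and by whether the encoded protein has a hydrophobic start (right). Black bars are the median of all other measured genes in that class: they stay near 0 over exon length and lie at -0.75 for genes with a hydrophobic start against 0.02 for those without.

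Cell type markers differed too between these libraries. Mature oligodendrocyte markers were at least 2-fold lower in 8 of 12 genes (median -1.58, summed 16034 CPM in mock and 10103 CPM in cuprizone), neuronal markers in 2 of 10 (median -0.44), and astrocyte markers in none of 10 (median -0.31). The astrocyte sum was higher, 10307 against 18674 CPM, with Gfap alone at 900 and 9280 CPM. Endothelial markers summed to 12 CPM in mock and 2.18 CPM in cuprizone. Their part in the members' values was not tested. With 1 library per group, a difference between diets and a difference in how the 2 libraries were handled cannot be told apart, for the class of hydrophobic starts and for the members alike.

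At 7 weeks, late in remyelination, the direction was the opposite and the size smaller. Of the 59 members measured, 14 were at least 2-fold higher in the cuprizone library and 1 was lower, where 8.25% of all measured genes were higher and 3.45% lower (11.7% in either direction). The median log2 ratio was 0.46 over the members (ligands 0.50, receptors 0.43) and -0.13 over all measured genes. Median exon length was 7.2 kb for measured members and 4.61 kb for all measured genes. By exon length (under 2, 2 to 4, 4 to 8 and over 8 kb) other genes had medians of -0.46, -0.30, -0.10 and 0.26. Members in the 3 longer classes had 0.07, 0.64 and 0.43. At least 2-fold higher in these 3 classes were 0 of 8, 10 of 25 and 4 of 25 members, against 5%, 7.46% and 15.8% of other genes. Over 8 kb the share of members was thus close to that of other genes. Other genes with a hydrophobic start had a median of 0.14 (14% at least 2-fold higher), those without -0.21 (6.64%). Members had 0.44 with and 1.03 without it. The part of length or start was not tested, and member counts after centring by either are not given here for 7 weeks. In the fit of all 9 libraries 26 of 70 members rose and 3 fell, where 39.3% of all genes were called in either direction, 24% higher and 15.4% lower (edgeR, adjusted p under 0.05). The effect differed from that at 5.5 weeks in 16 members, more positive in 12 and more negative in 4, where 17.2% of all genes differed, 10.3% and 6.92% in these directions. Of the 38 members lower at 5 weeks, 8 were at least 2-fold higher at 7 weeks and 30 differed by less, so that none was lower at both times.

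Robo3, a Robo family member known from commissural axons, was at 2.19 CPM in mock and 11.8 CPM in cuprizone, 5.40-fold higher (4.12 to 7.17), and at 2.43 to 5 CPM in all 5.5-week libraries. Sema3c, a secreted semaphorin, was at 4.01 and 20.1 CPM, 5.01-fold higher (4.09 to 6.17), and at no more than 4.89 CPM in any other library. Both values in that cuprizone library were the highest of the 9 libraries. Plxna3 (3.34-fold), Ntn3 (2.87-fold), Slit2 (2.8-fold), Plxnd1 (2.57-fold), Sema4g (2.52-fold) and Unc5d (2.5-fold) followed. The exception was Epha6, at 26.9 CPM in mock and 9.10 CPM in cuprizone, 2.95-fold lower (2.56 to 3.4). Other abundant genes of the Eph system were lower by less than 2-fold, Epha7 at 167 against 86.6 CPM and Efnb3 at 177 against 96.9 CPM. Of the EphA genes measured, 1 of 6 was higher and the median was -0.09, whereas plexins had a median of 0.70 and all 9 were above 0.

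Several members too low to be counted above had their highest level in that 1 library. Sema3g was at 2.87 CPM there, from 84 reads, and at 0 to 0.139 CPM in the other 8 libraries. Robo4, known from endothelial cells, was at 3.59 CPM there and at no more than 0.318 CPM elsewhere, and Ephb4, the receptor of veins, was at 5.99 CPM against at most 1.81 CPM. Of the members with a geometric mean of 0.25 to 2 CPM over the 9 libraries, which include Ephb4, 6 of 6 were at least 2-fold higher at 7 weeks, as were 37.2% of the 4673 genes in that range. Of those with a geometric mean under 0.25 CPM, which include Sema3g and Robo4, 4 of 5 were higher, as were 18.2% of the 35044 such genes. Only 3358 of these genes had 10 or more reads in the 2 libraries of 7 weeks together. That share is thus mostly over genes with hardly any reads and is not a like comparison for the members.

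Markers of vessels and immune cells moved with these values. Endothelial markers (9 genes) summed to 286 CPM in the 7-week cuprizone library and to 2.18 to 12 CPM in the other 8, and Tek was at 0 in 3 of those. Microglial markers (10 genes) summed to 784 CPM against 33.2 to 71.5 CPM, and pericyte markers (6 genes) to 261 CPM against 20 to 28.2 CPM. The neuronal sum was lower, 7540 CPM against 11871 CPM in the mock library of that week, with a median log2 ratio of -0.63. Of these 10 genes 7 were below 0 and 3 above. At least 2-fold lower were 0 and higher 1, Gad1, at 41.7 CPM in mock and 229 CPM in cuprizone. The part of these markers in the members' values was not tested. Of the other pathway genes, 3 of 79 rose past 2-fold in the cuprizone library and 0 fell past it, namely Kdr (4.62-fold, 3.68 to 5.86), Met (3.30-fold, 2.35 to 4.74) and Mical3 (2.45-fold, 2.24 to 2.69), and at 5.5 weeks 1 of 81 rose, the myelin protein gene Mag (log2 fold change 0.76 ± 0.14, edgeR adjusted p = 0.0229).

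**Figure D4:**
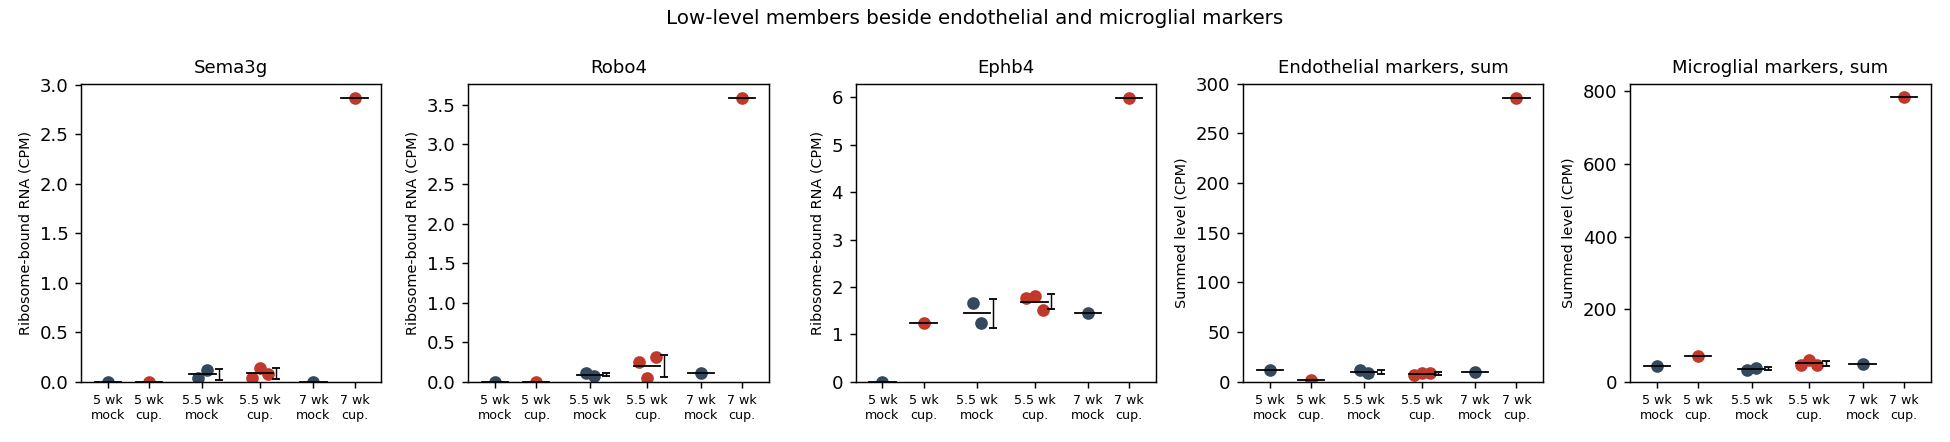
Level of Sema3g, Robo4 and Ephb4 and the summed level of endothelial and microglial markers, in CPM (y axes, each from 0), in each of the 9 libraries by week and diet (x axes). Points are libraries, dark for mock and red for cuprizone, with means as lines and SD as bars at 5.5 weeks; the 7-week cuprizone library is the highest in every panel, at 286 CPM for endothelial markers against at most 12 CPM elsewhere.

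Ligand genes summed to fewer CPM than receptor genes in each of the 9 libraries. Their summed levels stood in a ratio of 0.547 to 0.794, lowest in the 5-week mock library and highest in 5.5-week cuprizone replicate 2. In the 5-week cuprizone library the ratio was 0.735, as the receptor sum was lower there by more than the ligand sum. These sums are not corrected for exon length. Per exon length the order was reversed in all 9 libraries, with ligand to receptor ratios of 1.01 to 1.38. At 5.5 weeks the ligands summed to 866 and 740 CPM in mock and to 1087, 992 and 984 CPM in cuprizone, groups that did not overlap. The receptors summed to 1274 and 971 CPM in mock and 1470, 1248 and 1345 CPM in cuprizone, where the lowest cuprizone library lay below the highest mock library. No p-value is given for sums over the members.

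**Figure D5:**
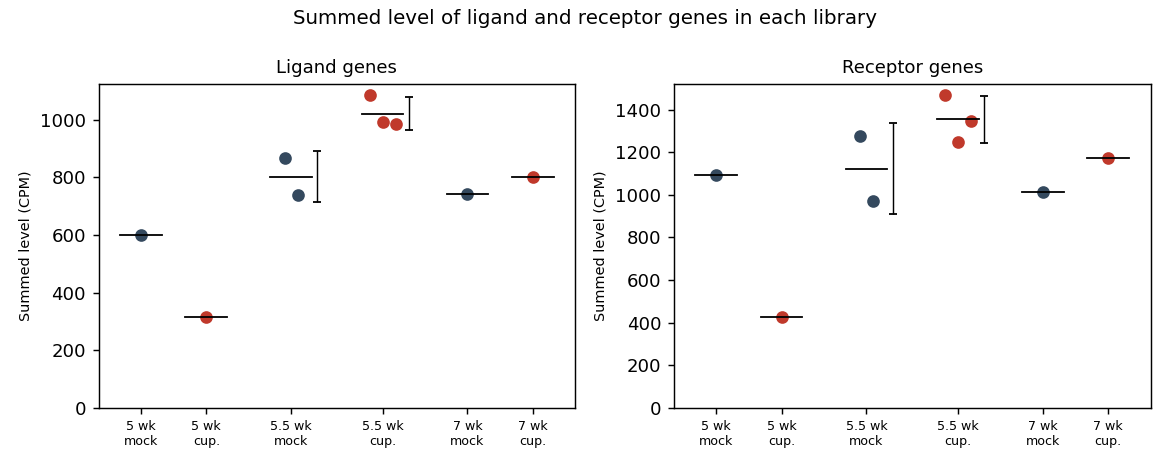
Summed level of the 35 ligand genes (left) and the 34 receptor genes (right) in CPM (y axes, each from 0) in each of the 9 libraries by week and diet (x axes). Points are libraries, dark for mock and red for cuprizone, lines are means and bars SD where a group has more than 1 library; the 5-week cuprizone library is the lowest in both panels, at 315 and 428 CPM.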

How the data were processed

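The authors deposited whole-number read counts per Ensembl gene. Per the submitters' processing notes the tools were FastQC 0.11.9, STAR 2.5.4b and featureCounts 1.6.0. The notes name builds GRCm38/mm10 and GRCm39/mm39 without their role, and the strand setting is not given in the sources used here. Symbols and exon lengths came from GENCODE M21. In 8 libraries, 44.1% to 96.2% of the values of 500 or more counts equalled another library of the group plus 1 to 10. Each such set was used as 1 library, leaving 9 of 17. Whether replicates came from separate mice is taken from the labels, and p-values measure the spread between these libraries.

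CPM were scaled by TMM over the 9 libraries. At 5.5 weeks edgeR 4.0.16 (R 4.3.3) was fitted to all genes passing filterByExpr (minimum count 10) with its robust quasi-likelihood F test, two-sided, Benjamini-Hochberg adjusted, threshold 0.05, and the scripts were tested on simulated data. At 5 and 7 weeks the log2 ratio of CPM (prior count 2) was taken for genes with a mean log2 CPM of at least 1. A fit of all 9 libraries, which lends the 5.5-week spread to the lone libraries, gave the difference between 7 and 5.5 weeks. Named members were those called at 5.5 weeks, the 6 ligands and 6 receptors with the largest changes there, up to 8 at each end among 2-fold ratios at 5 and 7 weeks, and the 5 ligands and 5 receptors with the highest level per kb in mock. Members outside this rule were named after their values were seen. Members and lists were chosen with earlier results of these data known. Centring by exon length or by protein start and the fit of all 17 libraries for the borrowed-spread contrasts were added after seeing the data. DESeq2 1.42.0, limma-voom, other scalings and filters, each library left out and a replicate block were the other alternatives. The longest coding sequence of each gene in GENCODE M21 was used for the protein start.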

Additional observations from a re-analysis of the deposited data

Results flagged for a closer look

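The cuprizone effect on 16 of 70 members differed between 7 and 5.5 weeks in the edgeR fit of the 9 libraries (adjusted p under 0.05 for the difference), where 17.2% of 20292 genes did. This test assumes that the lone 7-week libraries vary like those at 5.5 weeks. The log2 effect at 7 weeks minus that at 5.5 weeks was higher for 12 members, with Sema3g at 9.09, Robo4 at 3.88, Sema3c at 2.13, Robo3 at 2.00, Ephb4 at 1.81, Plxna3 at 1.74, Sema3b at 1.30, Ntn3 at 1.24, Sema4g at 1.16, Plxnd1 at 1.14, Epha10 at 1.09 and Slit2 at 0.94. The Sema3g value rests on a 7-week mock library with 0 reads and depends on the prior count. It was lower for 4 members, with Epha6 at -2.04, Sema3e at -1.27, Efnb3 at -0.93 and Sema4d at -0.78. Sema4d was the only one of the 4 members called at 5.5 weeks whose effect was smaller at 7 weeks by this test (0.89 against 0.11), and the differences for Sema6a (-0.48, adjusted p = 0.248), Sema3d (-0.60, adjusted p = 0.199) and Plxnb3 (-0.04, adjusted p = 0.942) did not pass in edgeR.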

How the results depend on the processing

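At 5.5 weeks the count of 4 members called ranged from 0 to 6 when each library was left out in turn, and was 9 in the fit of 17 libraries. With a replicate block it was 14 (13 higher, 1 lower), but same-numbered libraries did not vary together (correlations of 0.0388 and -0.0803), so the numbers were not taken to pair mice. DESeq2 called 5, and other scalings, filters and limma-voom 4 to 6. Plxnb3 lost its call without cuprizone 1 or 3 or either mock library, Sema3d without either mock library, and Sema4d and Sema6a without mock 3, all with the same direction. At 5 weeks, centring by protein start gave 23 members in place of 39, and the other alternatives 31 to 46. At 7 weeks 15 of 59 members passed 2-fold; by adjusted p over 70 members the count was 29 in the fit of 9 libraries (with all 15 among them), 59 with the libraries of the week as deposited and 51 with a replicate block over 17 libraries; the borrowed-spread count of 29 became 52, and the difference between 7 and 5.5 weeks 44 in place of 16, in the fit of 17. Except for the fit of 9, those fits count repeated libraries as samples. Counts of 2-fold members at 7 weeks under other scalings, filters or centring are not given here. Shares of all genes called in the alternative fits of each week are not given here. Their counts are therefore not read as a result about the members. Scaling by library totals alone shifted the median of all genes by 0.16 at 5 weeks and 0.33 at 7 weeks with members then at a median of -1.01 against 0.09 and 0.79 against 0.19. The ligand to receptor ratio in 5.5-week mock was 0.721 from CPM and 1.3 per exon length. Signs were checked for the members called or with the largest changes at 5.5 weeks. At 5 and 7 weeks they were checked for the members called at 5.5 weeks and those named for their ratio of that week. Members named only for their level were not checked. Of the values checked, none at 5.5 weeks and no ratio of at least 2-fold at 5 or 7 weeks changed sign. Ratios under 2-fold did: Sema4d went from -0.45 to 0.32 at 5 weeks and from 0.11 to -0.04 at 7 weeks when centred by protein start, and Sema3d at 5 weeks from 0.01 to between -0.53 and -0.36 where repeated libraries entered. Low counts limit Sema3a, Ntn1, Robo3 and Plxna3 at 5 weeks.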

Other observations

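Baseline levels also differed between the mock libraries. Ntn1 was at 0.341 CPM in the 5-week mock library and at 3.58 to 3.75 CPM in the 3 later ones, Ephb2 at 1.61 against 6.20 to 9.81 CPM, Slit1 at 14.1 against 28.6 to 48.1 CPM, and Efnb3 at 100 against 170 to 178 CPM. Sema3b was the other way, at 6.24 against 2.09 to 2.97 CPM. Batch and week cannot be told apart here. Ephb4 had 0 reads in the 5-week mock library and 28 in the cuprizone library, at least 8.52-fold higher with 3 counts as the floor, while Sema3f went from 29 reads to 0, at least 10.6-fold lower.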
